A study of Mus musculus with 12 samples.

Results

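The insulin-like growth factor (IGF) axis was described here by 8 genes of the mouse aorta: the ligand Igf1, its receptor Igf1r and the binding proteins Igfbp2, Igfbp3, Igfbp4, Igfbp5, Igfbp6 and Igfbp7. They were chosen by gene name with the results of the aneurysm comparison in view, and all 8 were among the 30130 genes listed. IGF1 is a secreted growth factor that acts through IGF1R, a receptor tyrosine kinase, and drives growth, survival and matrix production in smooth muscle cells and fibroblasts. The IGF binding proteins hold the ligand outside the cell, either shielding it from the receptor or delivering it, and proteases free the ligand by cutting them. In the vessel wall IGF1 is made by smooth muscle cells and fibroblasts and also by macrophages.

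RNA was sequenced from whole tissue of chronic proximal thoracic aortic aneurysms (cPTAA, 7 libraries, numbered 2, 3, 4, 6, 7, 9 and 12) and from the proximal thoracic aorta of sham-operated mice (5 libraries, numbered 1, 5, 8, 10 and 11). All mice were male, of the strain labelled C56BL/6J. The aneurysms followed elastase, a protease that degrades elastic fibres, applied around the aorta, together with BAPN, an inhibitor of the lysyl oxidases that crosslink collagen and elastin. The sham mice had surgery without these agents and normal water. The sources used here give neither age nor the time from surgery to harvest, and elastase, BAPN and surgery with them cannot be told apart. The libraries were numbered but not tied to named animals, so errors measure the spread between these samples.

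Depth was 15238188 to 17493428 reads in cPTAA and 14078885 to 16740960 in sham. Some libraries stood apart. On the third principal component of the 1000 most variable genes, cPTAA 6, 7 and 9 lay at -24.3, -21.3 and -57.3 and the other 4 aneurysms between 16.7 and 27.5. The cardiomyocyte marker score (mean log2 level of 5 genes) was 10.9, 10.8 and 13.1 in cPTAA 6, 7 and 9, from 4.71 to 7.30 in the other aneurysms and from 5.94 to 9.08 in sham. Sham 8 was highest on the first component, at 98.4, followed by sham 11 at 66.6, with sham 1, 5 and 10 between 13.1 and 26.2. Markers are called higher or lower here at a limma adjusted p under 0.05, as 12.9% and 11.1% of all tested genes were. Smooth muscle markers were abundant in both groups (3 of 8 lower in cPTAA, summed level 67159 to 263940 against 212340 to 291780). Macrophage markers were higher in cPTAA (8 of 8, summed level 16404 to 32420 against 3052.5 to 7922) and brown adipocyte markers lower (7 of 7, 1284 to 44124 against 31209 to 99774), with no marker of these lists at 0 in every library. Lymphocyte markers were higher too (7 of 7, 372 to 2446 against 52.4 to 138), as were 3 of 7 fibroblast markers, with 1 lower (46163 to 61359 against 21533 to 42418), and 3 of 6 endothelial markers were lower (5694 to 11031 against 9272 to 14664). Of the white adipocyte markers 2 of 6 were lower (25085 to 43097 against 35537 to 67057). So were 2 of 5 mesothelial markers (105 to 682 against 635 to 6672.5) and 1 of 5 Schwann cell markers. No cardiomyocyte or skeletal muscle marker passed. In whole tissue, more cells of a type and more RNA per cell cannot be told apart. The brown adipocyte score was 6.63 to 10.7 in cPTAA and 10.6 to 12.1 in sham, with overlap only through cPTAA 9 and sham 8. The smooth muscle score was 11.2 to 13.2 against 13.0 to 13.4, with overlap only through cPTAA 7. Fits adjusted for either score therefore separate it poorly from the condition. Values below are normalised read counts, that is, reads divided by one factor per library, and fold changes are differences of mean log2(value + 1), cPTAA minus sham, ± SE from the limma fit across all genes. Changes of the 8 genes are given without p-values, because the genes were chosen with this contrast known.

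Igf1 was higher in every aneurysm than in every sham aorta. In cPTAA its lowest value was 1615 (cPTAA 9), its median 2206 and its highest 3633 (cPTAA 4). The sham values were 661, 1340.2, 803, 603 and 716 in libraries 1, 5, 8, 10 and 11. Sham 5 was the highest of the sham libraries, and the lowest aneurysm was still 1.20 times above it. The mean was 2442 ± 684 (SD, n = 7) against 825 ± 297 (SD, n = 5), a log2 fold change of 1.58 ± 0.22. Macrophage markers rose in the same libraries (Cd68, a lysosomal glycoprotein of macrophages, log2 fold change 3.09 ± 0.27, limma adjusted p = 4.95e-06). The macrophage score did not overlap between the groups, so a part of macrophages in the Igf1 change cannot be told apart from the condition. After adjustment for the smooth muscle or the brown adipocyte score, the Igf1 log2 fold change was 1.56 or 1.25, and it was 1.83 without cPTAA 6, 7 and 9 and sham 8. With the macrophage score it was 0.15 and did not pass, in a fit that called 0 genes of all tested by limma (731 at an unadjusted p under 0.05).

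The receptor gene Igf1r had similar ranges in both groups. In cPTAA its values ran from 427 (cPTAA 9) through a median of 816 to 1123 (cPTAA 12). The sham values were 653, 731, 934, 939 and 1095 in libraries 1, 5, 8, 10 and 11. The groups overlapped, with 1 aneurysm above and 1 below all sham libraries, and the log2 fold change was -0.15 ± 0.20. It was -0.77 after adjustment for the brown adipocyte score and 0.10 without cPTAA 6, 7 and 9 and sham 8, so that its sign depended on the fit. The ratio of Igf1 to Igf1r reads was 3.17 ± 0.866 (SD, n = 7) in cPTAA and 1.0002 ± 0.490 (SD, n = 5) in sham. That ratio ran from 1.96 to 4.57 in cPTAA and from 0.643 to 1.83 in sham, without overlap.

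**Figure D1:**
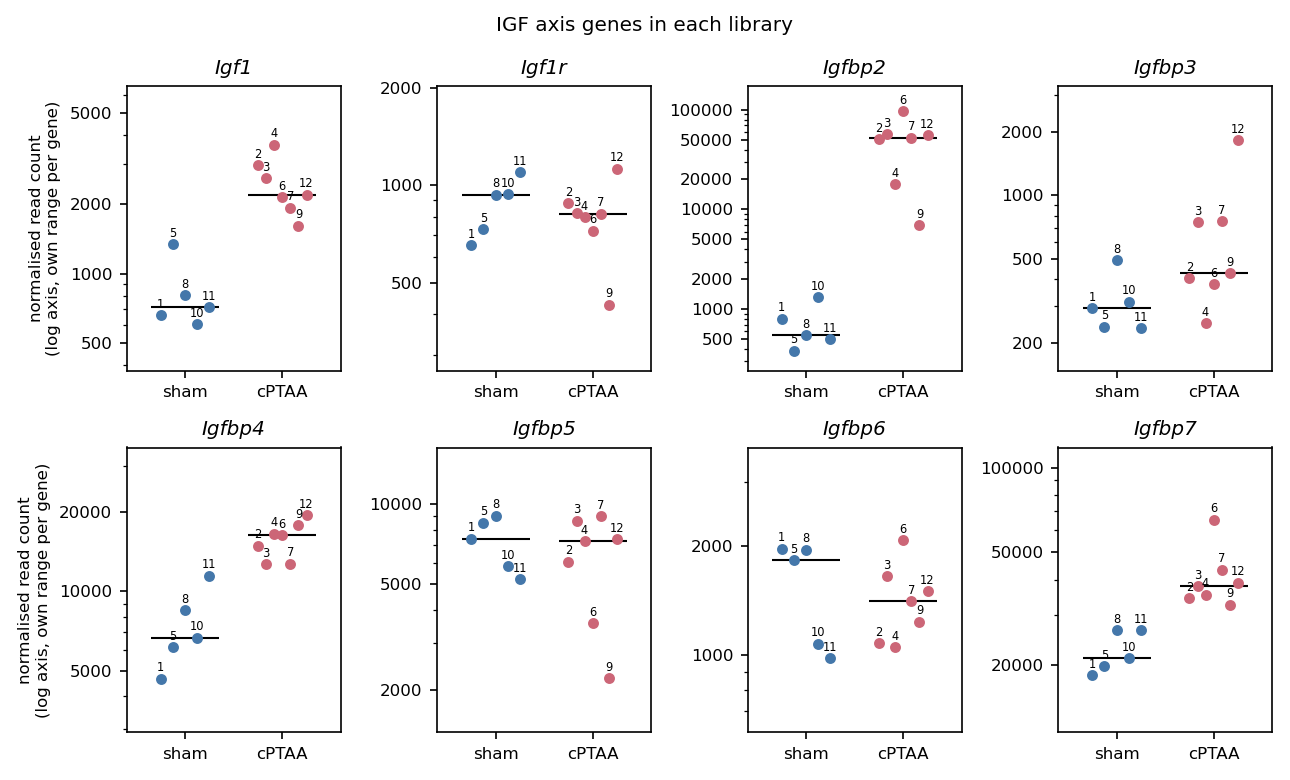
Normalised read count (log axis, own range for each gene) of the 8 IGF axis genes in the 5 sham and 7 cPTAA libraries; each point is 1 library with its number, and the line is the group median. Igf1, Igfbp2, Igfbp4 and Igfbp7 do not overlap between the groups, and cPTAA 9 is the lowest aneurysm for Igf1, Igf1r, Igfbp2, Igfbp5 and Igfbp7.

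Igfbp2 had by far the largest change among the 8 genes. It encodes a binding protein for IGF1 and IGF2 that can also bind integrins through an RGD motif. In cPTAA the lowest value was 6939 (cPTAA 9), the median 52573 and the highest 96413 (cPTAA 6). The sham values were 804, 384, 544, 1323 and 500.5 in libraries 1, 5, 8, 10 and 11. Every aneurysm was above every sham library, and the lowest aneurysm was 5.25 times above the highest sham. The mean was 48134 ± 29146 (SD, n = 7) against 711 ± 375 (SD, n = 5), and the log2 fold change of 5.85 ± 0.54 was number 5 from the top of the 21415 genes tested. Of the aneurysms, cPTAA 2, 3, 7 and 12 lay close together, from 50879 to 56733, while cPTAA 4 (17908) and cPTAA 9 were lower and cPTAA 6 higher, a span of 13.9-fold. Counting error is small at this level: in cPTAA 9 Igfbp2 took 0.0405% of all reads (Wilson 95% interval 0.0395% to 0.0414%), in cPTAA 6 0.605% (0.601% to 0.608%), and in sham 10, the highest sham library, 0.00744% (0.00703% to 0.00787%).

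cPTAA 9, the aneurysm with the least Igfbp2, was also the one with the highest cardiomyocyte score. The part of other tissue in that value was not tested. cPTAA 6, whose cardiomyocyte score was also above those of cPTAA 2, 3, 4 and 12, had the most Igfbp2. The Igfbp2 log2 fold change was 5.93 without cPTAA 6, 7 and 9 and sham 8, 4.99 after adjustment for the brown adipocyte score, and 5.63 with the smooth muscle score.

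Igfbp4 was higher in all aneurysms and was the member with the least spread between them. Its product restrains IGF signalling until it is cut by the protease PAPP-A. In cPTAA the values ran from 12711 (cPTAA 3) through a median of 16334 to 19532 (cPTAA 12), a range of 1.54-fold. The sham values were 4675, 6141, 8481, 6687 and 11483 in libraries 1, 5, 8, 10 and 11. No sham library reached the lowest aneurysm, though sham 11 came close to it, and the aneurysm values lay nearer to each other than the sham values, which spanned 2.46-fold. The log2 fold change was 1.13 ± 0.22.

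Igfbp7, the gene of a secreted protein of vessels that binds IGFs only weakly, was abundant in both groups and higher in the aneurysms. In cPTAA its values ran from 32693 (cPTAA 9) through a median of 37957 to 65415 (cPTAA 6). The sham values were 18434, 19830, 26585, 21066 and 26556 in libraries 1, 5, 8, 10 and 11. cPTAA 6 stood above the other aneurysms and was also highest for Igfbp2 and Igfbp6, and the groups did not overlap. The log2 fold change was 0.85 ± 0.23. Without cPTAA 6, 7 and 9 and sham 8 it was 0.79, and that of Igfbp4 1.20. After adjustment for the brown adipocyte score the Igfbp4 and Igfbp7 log2 fold changes were 0.93 and 0.76, and neither passed the threshold for calls in that fit. In GENCODE M21 the exons of Igfbp7 share 85 bases with those of Polr2b, whose reads cannot be told apart there because the strand setting of the counting was not given.

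Igfbp3, whose product is the main carrier of IGFs in serum, was higher in some aneurysms only. In cPTAA the values ran from 248 (cPTAA 4) through a median of 427 to 1831 (cPTAA 12). The sham values were 292, 239.6, 493.05, 315 and 236 in libraries 1, 5, 8, 10 and 11. The 3 aneurysms cPTAA 3, 7 and 12 were above all sham libraries and the other 4 lay within the sham range, a spread of 7.39-fold among aneurysms. The log2 fold change was 0.88 ± 0.39, with 1.18 without cPTAA 6, 7 and 9 and sham 8, and its sign turned, to -0.28, after adjustment for the brown adipocyte score.

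Igfbp5 and Igfbp6 overlapped between the groups. Igfbp5 encodes a binding protein that attaches to extracellular matrix. Its values in cPTAA ran from 2229 (cPTAA 9) through a median of 7242 to 8969 (cPTAA 7), and the sham values were 7409, 8497, 9023, 5835 and 5211 in libraries 1, 5, 8, 10 and 11. Only cPTAA 6 and cPTAA 9 lay below the sham range, and the log2 fold change was -0.30 ± 0.32. Without cPTAA 6, 7 and 9 and sham 8 it was 0.14, and after adjustment for the brown adipocyte score -1.08. Igfbp6 encodes the binding protein that prefers IGF2. Its values in cPTAA ran from 1051 (cPTAA 4) through a median of 1408 to 2075 (cPTAA 6), and the sham values were 1964, 1826, 1954, 1074 and 979. Sham 10 and 11 lay near the low end of the aneurysm range and sham 1, 5 and 8 near its high end, and the log2 fold change was -0.10 ± 0.22.

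Counted as a description, 4 of the 8 genes (Igf1, Igfbp2, Igfbp4 and Igfbp7) passed the limma threshold (Benjamini-Hochberg adjusted p under 0.05 over all genes) as higher and 0 as lower. Of all tested genes 23.9% passed it, 12.9% as higher and 11.1% as lower. The same 4 genes had no overlap between the groups, as did 13% of all tested genes (8.02% higher, 4.95% lower). The median log2 fold change of the 8 genes was 0.87, and that of all tested genes -0.05. Since the genes were chosen with these values known, nothing is read from the counts.

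Igfbp2 and Igfbp5 are neighbours on chromosome 1. In GENCODE M21 they lie on opposite strands with their 3′ ends facing each other, 5457 bases apart. The ratio of Igfbp2 to Igfbp5 reads ran from 2.47 to 26.9 in cPTAA (mean 8.69 ± 8.33, SD, n = 7) and from 0.0452 to 0.227 in sham (0.107 ± 0.0715, SD, n = 5). Igfbp2 was thus above its neighbour in every aneurysm and below it in every sham aorta. Of this pair, only Igfbp5 overlapped between the groups. The bases just upstream of the transcription start are shown for the pair and for Igfbp4 and Igfbp7, the other binding protein genes without overlap. They come from RefSeq (GRCm38.p6, not the build of the submitters' notes), 5′ to 3′ on the strand of the gene, at chr1:72824230-72824479 (plus strand) for Igfbp2, chr1:72874885-72875115 (minus) for Igfbp5, chr11:99040994-99041243 (plus) for Igfbp4 and chr5:77408046-77408295 (minus) for Igfbp7. The Igfbp2 sequence is that of the first of its annotated starts, and the Igfbp5 run is trimmed to end before the GENCODE transcript begins. Capitals mark matches, on either strand, to the GC box core (GGGCGG), the TATA box (TATAAA) and the CCAAT box (CCAAT).
Igfbp2: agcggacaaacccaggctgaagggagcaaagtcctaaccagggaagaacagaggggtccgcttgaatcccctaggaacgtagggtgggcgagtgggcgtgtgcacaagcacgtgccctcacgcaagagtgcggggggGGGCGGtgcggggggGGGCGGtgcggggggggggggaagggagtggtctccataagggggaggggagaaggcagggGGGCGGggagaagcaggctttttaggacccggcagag
Igfbp5: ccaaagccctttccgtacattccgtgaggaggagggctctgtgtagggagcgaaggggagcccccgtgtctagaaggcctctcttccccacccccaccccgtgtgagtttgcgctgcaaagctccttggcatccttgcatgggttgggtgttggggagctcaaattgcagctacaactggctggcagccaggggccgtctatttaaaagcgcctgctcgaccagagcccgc
Igfbp4: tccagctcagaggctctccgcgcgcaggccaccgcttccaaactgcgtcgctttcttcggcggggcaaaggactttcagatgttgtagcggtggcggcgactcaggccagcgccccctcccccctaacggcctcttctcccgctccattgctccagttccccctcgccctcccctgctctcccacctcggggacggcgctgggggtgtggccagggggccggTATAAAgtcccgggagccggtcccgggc
Igfbp7: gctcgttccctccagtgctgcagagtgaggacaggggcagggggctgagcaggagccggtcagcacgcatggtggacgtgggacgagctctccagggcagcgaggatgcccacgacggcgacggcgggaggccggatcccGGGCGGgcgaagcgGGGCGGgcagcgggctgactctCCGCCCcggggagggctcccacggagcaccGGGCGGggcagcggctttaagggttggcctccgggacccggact

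The 4 sequences differ in these motifs. GGGCGG was found 3 times upstream of Igfbp2, 4 times upstream of Igfbp7 and 0 times upstream of Igfbp4 and Igfbp5. The window before the other annotated start of Igfbp2, not shown, held 0 matches to it and had 56.4% G and C. TATAAA was found 1 time upstream of Igfbp4 and in none of the other 3. CCAAT was in none of them, and matches to different motifs did not overlap. Of all 32851 RefSeq upstream windows of 250 bases, 32.7% held the GC box core, 12.4% the TATA box and 33.9% the CCAAT box. G and C made up 67.2% of the Igfbp2 window, 58.8% for Igfbp5, 69.2% for Igfbp4 and 74% for Igfbp7, where the median of all windows was 52.4%. The Igfbp5 share and motif counts are for its full window of 250 bases, of which 231 are shown. Only exact matches were counted, so variant forms of these motifs were missed. A match describes the letters only, and no binding was measured.

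Levels of different genes were compared per kilobase of exon (union of the GENCODE M21 exons, which may differ from those counted and which understates genes with long alternative exons, such as Igf1). In sham the order was Igfbp7 (18606 ± 3173 per kb, SD, n = 5), Igfbp4 (1697 ± 592), Igfbp6 (1402 ± 441), Igfbp5 (1198 ± 274), Igfbp2 (385 ± 203), Igfbp3 (101 ± 33.6), Igf1 (83.3 ± 30.03) and Igf1r (51.8 ± 10.6). The ranges of Igfbp4, Igfbp6 and Igfbp5 overlapped, as did those of Igfbp3 and Igf1 and those of Igf1 and Igf1r. Igfbp7 and Igfbp2 were separated from their neighbours in that order. In cPTAA Igfbp2 was second, at 26061 ± 15780 per kb (SD, n = 7), behind Igfbp7 at 34105 ± 9286. Igfbp4 followed at 3582 ± 576, and Igfbp6 (1285 ± 324), Igfbp5 (1049 ± 423), Igf1 (247 ± 69.03), Igfbp3 (219 ± 173) and Igf1r (47.5 ± 12.3) came after it. The Igfbp2 range overlapped those of Igfbp7 and Igfbp4, though Igfbp7 was above Igfbp2 in each aneurysm. That order rests on the exon lengths used, 1.847 kb for Igfbp2 and 1.209 kb for Igfbp7. In normalised read counts Igfbp2 was above Igfbp7 in cPTAA 2, 3, 6, 7 and 12 and below it in cPTAA 4 and 9. The ranges of Igfbp6 and Igfbp5 overlapped, and so did those of Igf1 and Igfbp3.

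The make-up of the binding protein pool differed accordingly. Of the summed per-kilobase level of Igfbp2 to Igfbp7, Igfbp2 made up 35.9 ± 14.2% in cPTAA (SD, n = 7; 10.3% to 46.4%) and 1.71 ± 1.02% in sham (SD, n = 5; 0.983% to 3.30%). Igfbp7 made up 53.9 ± 11.2% and 79.4 ± 2.20%. By these exon lengths it was the largest share in each of the 12 libraries. Its lead over Igfbp2 was narrow in cPTAA 2 (46.4% against 44.7%), cPTAA 3 (46.1% against 45.1%) and cPTAA 6 (48.1% against 46.4%). The share of Igfbp5 was 1.69 ± 0.725% against 5.22 ± 1.38%, and that of Igfbp6 2.04 ± 0.495% against 6.16 ± 2.305%, although their read counts overlapped between the groups. Among the high-affinity binding proteins alone, Igfbp2 to Igfbp6, Igfbp2 made up 74.4 ± 17.5% in cPTAA and 8.33 ± 5.11% in sham. In cPTAA 9 its share of these was 39.8% and that of Igfbp4 was 43.0%, so that this aneurysm alone had more Igfbp4 than Igfbp2.

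**Figure D2:**
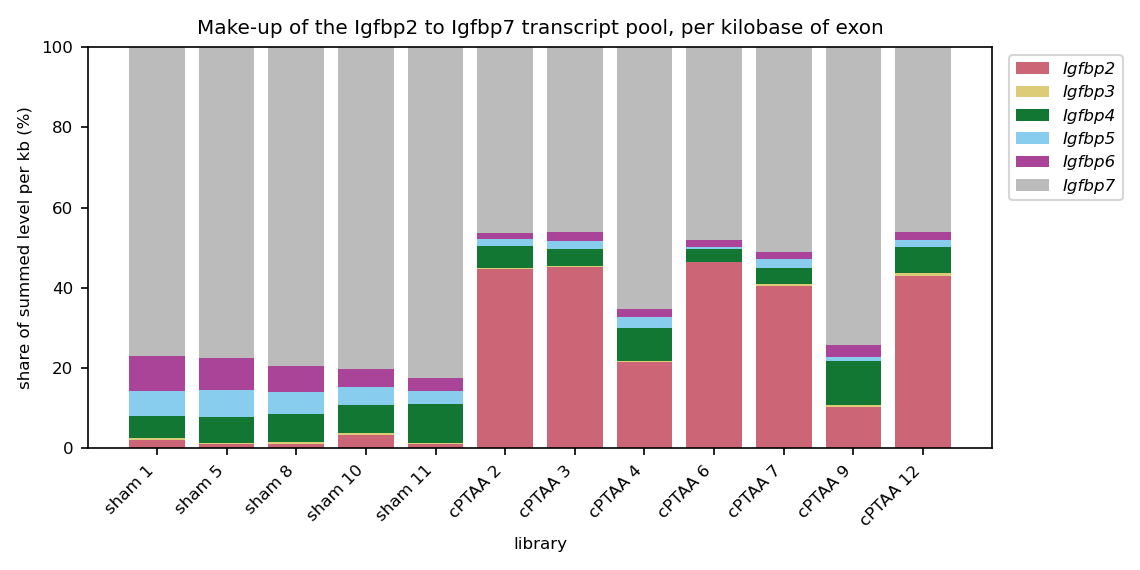
Share (%) of each gene in the summed per-kilobase level of Igfbp2 to Igfbp7, 1 bar for each of the 5 sham and 7 cPTAA libraries. Igfbp2 takes 0.983% to 3.30% in sham and 10.3% to 46.4% in cPTAA, least in cPTAA 9 and cPTAA 4.

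Set against the ligand, the binding proteins gave different pictures with and without Igfbp2. The summed per-kilobase level of Igfbp2 to Igfbp6 was 42.7 to 270.3 times that of Igf1 in cPTAA (median 139.9) and 35.0 to 70.1 times in sham (median 68.7), with overlap. Without Igfbp2, the summed level of Igfbp3 to Igfbp6 was 16.3 to 34.8 times that of Igf1 in cPTAA (median 29.04) and 33.4 to 65.9 times in sham (median 61.2), and the groups overlapped only through sham 5. These ratios depend on the exon lengths used and compare transcripts, not proteins.

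Other genes of the pathway, listed by role, were read from the same fit. The list was drawn up with earlier results of these data known, so its p-values are no independent evidence. Of the 62 such genes listed, 57 were tested, and 6 rose, 10 fell and 41 did not pass, against 12.9% rising and 11.1% falling among all tested genes. Their median log2 fold change was -0.31. The numbers depended on the libraries: 10 rose without cPTAA 9, and 14 rose and 26 were called without cPTAA 6, 7 and 9 and sham 8. Calls over all genes rose as well, from 5128 (2754 higher) to 5974 (3156 higher) and 6569 (3481 higher). After adjustment for the brown adipocyte score 1 rose (C1s1) and 3 fell (Insr, Irs1 and Foxo3). Calls over all genes fell as well in that fit, to 1650 (1019 higher, 631 lower).

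Among the other ligands, receptors and binding partners, 0 of 4 tested genes rose and 2 fell. Insr, the insulin receptor, which can pair with IGF1R, was at 1151 ± 273 (SD, n = 7) against 2311 ± 467 (SD, n = 5), with a log2 fold change of -1.01 ± 0.19 (limma adjusted p = 0.00138). Its values in cPTAA ran from 775 through a median of 1213 to 1539, and the sham values were 2643, 2550, 1503, 2537 and 2323 in libraries 1, 5, 8, 10 and 11. The groups overlapped only through sham 8. Igfals, the acid-labile subunit that joins IGFBP3 or IGFBP5 in serum complexes, had a log2 fold change of -1.23 ± 0.35 (limma adjusted p = 0.0176), and it did not pass without sham 5 or after adjustment for the smooth muscle score. Igf2r, which clears IGF2, did not pass (log2 fold change 0.28 ± 0.25), except without cPTAA 6, 7 and 9 and sham 8 (0.68, limma adjusted p = 0.00295). Igf2, the other ligand, was at most 1.95 normalised reads in any library, and Igfbp1, the neighbour of Igfbp3 on chromosome 11, was at 0 in all libraries but sham 11 (2.33), so neither was tested.

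Among proteases that cut the binding proteins, and their inhibitors, 2 of 9 rose and 1 fell. C1s1, a complement protease whose human counterpart C1s cuts IGFBP5, was at 5147 ± 1160 (SD, n = 7) against 1760.4 ± 434 (SD, n = 5), with a log2 fold change of 1.55 ± 0.19 (limma adjusted p = 5.84e-05) and no overlap (lowest aneurysm 3237, highest sham 2412). Htra1, a secreted serine protease whose human form cuts IGFBP5, was at 9694 ± 2908 against 5063 ± 247 (log2 fold change 0.89 ± 0.19, limma adjusted p = 0.00342), also without overlap. Adam12, a metalloproteinase whose human form cuts IGFBP3 and IGFBP5, was lower, at 522 ± 283 against 1207 ± 432 (log2 fold change -1.27 ± 0.39, limma adjusted p = 0.0275). Sham 8, at 437, lay within the aneurysm range, and Adam12 did not pass when sham 1, 5, 10 or 11 was left out. Pappa, the protease of IGFBP4, had a log2 fold change of 1.13 ± 0.65 that did not pass (limma adjusted p = 0.229), with values from 12.7 to 321 in cPTAA and 23.3 to 52.7 in sham. Pappa passed without cPTAA 9 (log2 fold change 1.57, limma adjusted p = 0.0295), without cPTAA 6, 7 and 9 and sham 8 (2.33, limma adjusted p = 0.000531) and by DESeq2 (1.68, adjusted p = 0.01395). Its log2 fold change was 0.18 after adjustment for the smooth muscle score and turned to -1.14 with the brown adipocyte score. Stc1 and Stc2, which inhibit PAPP-A, did not pass (log2 fold changes 1.19 ± 0.44 and -0.26 ± 0.20). Stc1 passed without cPTAA 9 (1.52, limma adjusted p = 0.00187), without sham 8 (1.39), without cPTAA 6, 7 and 9 and sham 8 (1.84), by edgeR (1.32) and by DESeq2 (1.33). The brown adipocyte score turned the Stc1 log2 fold change to -0.13.

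**Figure D3:**
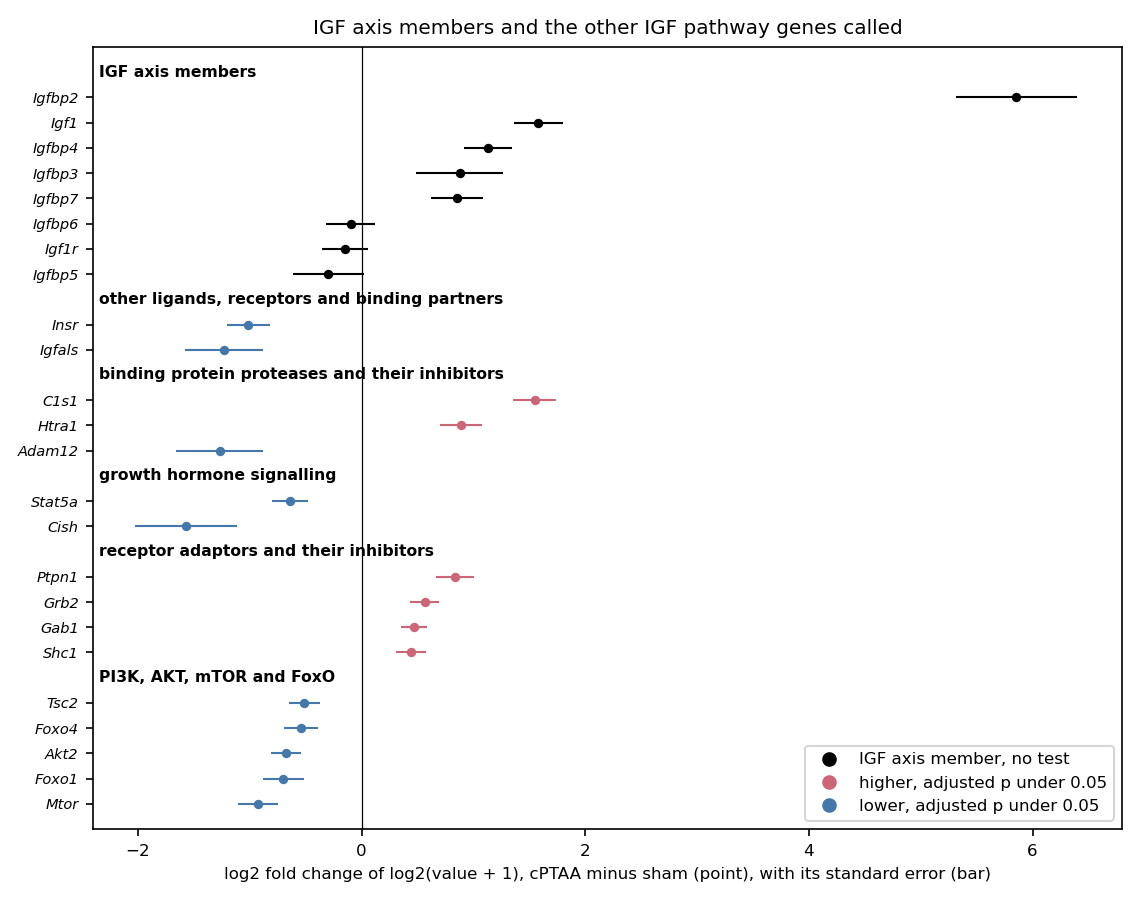
Log2 fold change (cPTAA minus sham, on log2(value + 1)) with its standard error for the 8 IGF axis genes, in black and without a test, and for the 16 pathway genes called by limma, by role and coloured by direction. Igfbp2 lies at 5.85, while the pathway genes lie between -1.57 (Cish) and 1.55 (C1s1).

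Of the genes of growth hormone signalling, which drives Igf1 in liver, 0 of 7 rose and 2 fell. Cish, a feedback inhibitor induced by STAT5, was at 140 ± 89.5 (SD, n = 7) against 448 ± 328 (SD, n = 5), with a log2 fold change of -1.57 ± 0.46 (limma adjusted p = 0.0214). Cish did not pass without sham 5, without sham 11, or after adjustment for the smooth muscle (-1.56) or the brown adipocyte score (-0.97). Stat5a, a gene of STAT5, had a log2 fold change of -0.64 ± 0.16 (limma adjusted p = 0.00938). Stat5b, the other STAT5 gene, did not pass (-0.33 ± 0.13, limma adjusted p = 0.0769). The growth hormone receptor gene Ghr did not pass (log2 fold change -0.20 ± 0.19), nor did Jak2, the kinase bound to it (0.11 ± 0.16).

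Of the receptor adaptors and their inhibitors, 4 of 10 tested genes rose and 0 fell. The adaptors Grb2, Gab1 and Shc1 had log2 fold changes of 0.56 ± 0.13, 0.47 ± 0.12 and 0.44 ± 0.14 (limma adjusted p = 0.00486, 0.00835 and 0.0304). Ptpn1, a phosphatase that turns off the insulin and IGF1 receptors, had a log2 fold change of 0.83 ± 0.17 (limma adjusted p = 0.00238). Grb2, Gab1 and Ptpn1 had no overlap between the groups. None of the 4 passed after adjustment for the brown adipocyte or the smooth muscle score. Those fits called 1650 and 3452 of all genes, against 5128 without a score. Shc1 also lost its call when cPTAA 2, 3 or 4, or sham 1, 8, 10 or 11, was left out. The insulin receptor substrates Irs1 and Irs2 did not pass (-0.86 ± 0.45 and -0.03 ± 0.42).

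Of the kinases, phosphatases and transcription factors downstream of the receptor, 0 of 24 rose and 5 fell. Mtor, the kinase of the growth-controlling mTOR complexes, was at 1052 ± 222 (SD, n = 7) against 2005 ± 447 (SD, n = 5), and Akt2, an AKT kinase linked to insulin action, at 3694 ± 491 against 5902 ± 714, both without overlap. Their log2 fold changes were -0.93 ± 0.18 and -0.68 ± 0.14 (limma adjusted p = 0.00171 and 0.00219). Foxo1 and Foxo4, transcription factors that AKT holds in the cytoplasm, and Tsc2, an inhibitor of mTOR complex 1, had log2 fold changes of -0.70 ± 0.18, -0.54 ± 0.15 and -0.51 ± 0.14 (limma adjusted p = 0.0111, 0.0151 and 0.0127). Foxo4 also had no overlap between the groups, while Foxo1 and Tsc2 overlapped. Akt1, another AKT kinase, and Pik3r1, a regulatory subunit of PI3K, did not pass (0.20 ± 0.18 and 0.28 ± 0.27). Without cPTAA 6, 7 and 9 and sham 8, Pik3r1 passed (0.66, limma adjusted p = 0.0112). After adjustment for the brown adipocyte score none of the 5 passed (limma adjusted p from 0.0525 to 0.277), where 1650 of all genes did. In that fit the log2 fold changes of Mtor, Akt2 and Tsc2 were nearer to 0, at -0.41, -0.38 and -0.40, and those of Foxo1 and Foxo4 farther from it, at -0.96 and -0.78. Of the 3 IGF2 mRNA-binding proteins 0 rose and 0 fell, with log2 fold changes from -0.32 ± 0.31 (Igf2bp2) to 0.64 ± 0.66 (Igf2bp1).

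The genes whose levels were most like those of the IGF axis were ranked by Pearson's r across the 12 libraries on log2(value + 1), among 14747 named genes whose mean reached 10 in one group or the other. The r spans both groups and is a description of likeness, and it says nothing of shared control. For Igfbp2 they were Fbln5, an elastic fibre protein (r = 0.986, and 0.885 after each group was centred on its mean), Rarres1 (0.982 and 0.823) and Rasa4 (0.981 and 0.810). For Igf1 they were Sdf2l1, a protein of the endoplasmic reticulum (0.975 and 0.862), Galns, a lysosomal sulfatase (0.973 and 0.857), and Cd300lb, a receptor of myeloid cells (0.971 and 0.839). Igf1r and Igfbp5, which overlapped between the groups, were most like Kank2 (0.965) and Akap12 (0.965), both tied to the cytoskeleton. Zc3h18 (0.948) and Nos1ap (0.938) followed for Igf1r, and Prrg3 (0.965) and Dip2c (0.953) for Igfbp5. Igfbp4 was most like Selenon (0.985), Tbc1d10c (0.963) and Crlf2 (0.943). Igfbp7 was most like Eid1 (0.980), Myl12b (0.967) and Scx (0.959), a transcription factor of tendon. For Igfbp6 the highest r were lower, with Efcab7 (0.831), Glt8d2 (0.798) and H2-Q2 (0.754). Igfbp3 was most like an immunoglobulin variable gene, Ighv1-80 (0.9503), and Ibsp, bone sialoprotein (0.927), followed by Igkv4-80 (0.925). Reads of H2-Q2 and of immunoglobulin genes are uncertain because of close copies. Igfbp3 in cPTAA 12 had its highest value, and that library also had the highest lymphocyte score (7.92, against 4.96 to 6.78 in the other aneurysms).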

How the data were processed

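Whole-tissue RNA was sequenced in 12 libraries (7 cPTAA, 5 sham), grouped by sample title. Per the labels' protocols, poly(A) RNA was selected before library preparation. The submitters' processing notes name GRCm39, featureCounts 1.5.0-p3, StringTie and HISAT2 2.0.5, without roles, and strand setting, scaling and filters are not given in the sources used here. Each deposited value is a non-negative signal for 1 gene in 1 library. Multiplied by a library-wide factor, each gave whole reads (100% of values whole within 0.02 reads; 1 read is worth 0.863 to 1.16 units).

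The test was limma 3.58.1 in R 4.3.3, trended, on log2(value + 1), which understates the change of low genes. Genes had to reach 1 in 5 libraries (21415 did), p-values were adjusted after Benjamini-Hochberg, and 0.05 was the threshold. The fit was tested on simulated data. All members passed the filter. On the recovered reads, edgeR 4.0.16 called 2622 genes higher and 2261 lower of 15839 tested, 4451 of its calls shared with limma. DESeq2 1.42.0, other scalings, filters, pseudocounts, covariates and left-out libraries were alternatives. No pair of libraries within a group agreed within sampling noise (lowest chi-square per degree of freedom 18.75). Wilson intervals cover counting error only.

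Members and lists were chosen with earlier results of these data known. All members and the called pathway genes are named, plus the extremes of each role and others for their role, and the 3 genes most like a member by r. The planned correlations of the 28 member pairs within cPTAA are not given, because the libraries split into clusters of 4 and 3, under the minimum of 6. Gene lengths and overlaps came from GENCODE M21 (GRCm38) and upstream sequences, matched by symbol for all 8 members, from RefSeq (GRCm38.p6).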

Additional observations from a re-analysis of the deposited data

Results flagged for a closer look

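Of 48 groups examined (8 IGF axis genes and 16 called pathway genes, each in cPTAA and sham), 7 held a library whose gap to its nearest neighbour took up more of the group's range than Dixon's 95% limit. For normally distributed values chance gives about 5% of groups. The limit was applied to values without the log2 step, so nothing is read from the number of groups. Igf1 was 1340.2 in sham 5, with the next sham library at 803. Igfbp3 was 1831 in cPTAA 12, with the next aneurysm at 754. Igfbp7 was 65415 in cPTAA 6, with the next at 43480.0. Among pathway genes, sham 8 was low for Insr (1503, next 2323) and for Adam12 (437, next 1372). Cish was 325 in cPTAA 9 (next 168) and Foxo1 was 834 in cPTAA 12 (next 577).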

How the results depend on the processing

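No paired analysis was possible because no library number occurs in both groups. Among 21 alternatives, direction and call held for Igf1 and Igfbp2 in the 20 that were planned, where the log2 fold change ran from 1.25 to 1.83 and from 4.99 to 6.26. Among the 20, the fit without cPTAA 6, 7 and 9 and sham 8 left out libraries that stood apart in these same data. Igfbp4 (0.93 to 1.3) and Igfbp7 (0.74 to 0.99) kept their direction in all 20 and missed the threshold only after adjustment for the brown adipocyte score. Igfbp3 passed without cPTAA 4 (log2 fold change 1.07) and by DESeq2 (1.12). The number of IGF axis genes called was 4 to 5 when 1 library was left out. With the brown adipocyte score it was 2, with 4 other pathway genes called (1 higher, 3 lower) and 1650 genes in all (1019 higher, 631 lower). With the smooth muscle score 2 pathway genes rose and 14 fell, and of all tested genes 1985 rose and 1467 fell. Leaving out cPTAA 6, 7 and 9 and sham 8 together gave 26 pathway genes (14 higher, 12 lower) and 6569 genes in all (3481 higher, 3088 lower). The causes were not tested. With 1 library left out, 13 to 23 pathway genes were called (5 to 10 higher, 8 to 15 lower) and 3888 to 5974 of all genes (2213 to 3156 higher, 1675 to 2818 lower). The brown adipocyte and smooth muscle scores overlap little between the groups, so fits with them separate score and condition poorly. The macrophage score as a covariate, added after seeing the data, does not overlap between the groups. With it limma called 0 genes of any kind, with 731 of 21415 at an unadjusted p under 0.05, and the log2 fold changes of Igf1 and Igfbp2 were 0.15 and 7.14. The alternatives for the correlations among members were not run, as no correlation is given.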

Other observations

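The spread of the binding proteins among aneurysms differed by gene. On the log2 scale the SD over the 7 aneurysms was 1.29 for Igfbp2, 0.94 for Igfbp3 and 0.75 for Igfbp5, and 7.42%, 22.1% and 34.6% of all tested genes had a larger one. It was 0.24 for Igfbp4, with 88.03% of tested genes above it, and 0.34 for Igfbp7, with 74.6% above it. In sham the SD was 0.69 for Igfbp2 and 0.49 for Igfbp4. Igf1os, annotated on the strand opposite to Igf1 with no exon bases shared, was between 1.85 and 21.7 normalised reads in all libraries.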
